A study of Mus musculus with 12 samples.

Results

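The adaptor gene Blnk and 8 other genes that act at or next to the B cell receptor (Cd79a, Cd79b, Lyn, Blk, Syk, Btk, Plcg2 and Cd22) were followed across sorted mouse B cells that did or did not secrete interleukin 10. Members were the array probes whose gene name was 1 of these 9 symbols, which gave 12 of 55681 gene probes and 9 of 34821 gene names. All 12 probes passed the detection filter, so all 9 genes were among the 24964 genes tested.

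Of the 12 arrays, 3 held IL-10+ B cells of HDM mice, 3 held IL-10+ B cells of control mice, 3 held IL-10- B cells of HDM mice and 3 held IL-10- B cells of control mice. HDM stands for house dust mite, and the submitters described these mice as allergic and asthmatic. All animals were female Balb/c mice, with no transgene or deletion named. Purified splenic B cells from both kinds of mice were cultured for days with a CD40 agonist and received LPS in the final hours, so every group, controls included, was activated through CD40 and Toll-like receptor 4. Secreted IL-10 was captured on the cell surface by a secretion assay, and a flow sorter parted IL-10+ from IL-10- cells. The age of the mice and the HDM protocol are not given in the sources used here. Whether the 3 samples per group were different animals is not stated either, and the p-values therefore rest on a between-sample spread of which some may be technical. The RNA was amplified by PCR before labelling, and in such bulk samples fewer cells of a type and less RNA per cell cannot be told apart.

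The B cell receptor is a membrane immunoglobulin held in a complex with the signalling chains CD79A and CD79B. When the receptor is engaged, Src-family kinases such as LYN and BLK phosphorylate the tails of these chains, and the kinase SYK docks there and becomes active. SYK phosphorylates the adaptor BLNK (also called SLP-65), which brings the kinase BTK and the lipase PLCG2 together so that calcium and protein kinase C signalling start. CD22 is a sialic acid binding receptor that dampens this signal after LYN phosphorylates it. The amount of receptor signal is known to shape B cell development and activation, and the study's title concerns regulatory B cells in allergic airway inflammation.

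The sequences below are shown because 3 members were read by 2 probes each that sit at different places on the transcript, and these probes did not give the same values. Coordinates are on mouse build mm9 as the array files give them, and sequences are the probes' own, 5′ to 3′, in lower case with the hexamer AATAAA, the usual polyadenylation signal, in capitals. Both upstream probes are given whole and 30 bases are given of the others. The Blnk probe (chr19:41003426-41003485, minus strand) starts at base 2028 of its transcript. The upstream Btk probe (chrX:131083955-131084014, minus strand) starts at base 1665, and the 3′ Btk probe (chrX:131076995-131077054, minus strand) at base 2360. The upstream Cd79a probe (chr7:25684357-25684614, plus strand) starts at base 321, and its 60 bases span 258 bases of genome, so it crosses an exon junction. The 3′ Cd79a probe starts at base 930 of a Cd79a cDNA, although the array files place it on chromosome 12 while RefSeq has the gene on chromosome 7. The 3′ Syk probe (chr13:52744088-52744147, plus strand) starts at base 5029 of the transcript, and the other Syk probe (chr13:52738924-52738983, plus strand) was designed on a cDNA clone.
Blnk: tgatactaatattgtccaAATAAAtgtatt
Btk upstream: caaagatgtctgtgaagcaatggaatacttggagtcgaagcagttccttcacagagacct
Btk 3′: aacactttgggggagggaaaactgtaaata
Cd79a upstream: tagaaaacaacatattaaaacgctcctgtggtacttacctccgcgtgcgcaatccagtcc
Cd79a 3′: cacttaagtgatAATAAAtccttcccaaag
Syk 3′: tttcagaaattattttaAATAAAgatctac
Syk cDNA clone: agctgtatcgattagctgccagcaggatga

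The hexamer AATAAA stood in 4 of the 12 member probes (33.3%), those of Blnk and Plcg2 and the 3′ probes of Syk and Cd79a, against 5602 of all 55681 probes (10.1%). Its complement on the other strand, TTTATT, stood in 1 of 12 (8.33%), against 2082 of 55681 (3.74%). The remaining probes were those of Lyn (chr4:3718682-3718741, plus strand), Plcg2 (chr8:120158980-120159037, plus strand), Cd79b (chr11:106172780-106172839, minus strand), Cd22 (chr7:31651249-31651308, minus strand) and Blk (chr14:63997333-63998470, minus strand), of which the Blk probe spans 1138 bases of genome across an intron. All probes were 60 bases long.

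A level is the log2 ratio of a probe's processed signal to the 75th percentile of its array, and that percentile was a signal of 218 to 280. Levels of different probes were set against each other to choose which probe stood for a gene, the one with the highest mean. For 2 probes of a gene or transcript, the difference of their levels was also compared between arrays. Within the marker lists below, levels were also summed on the linear scale. No spot was saturated, and replicate spots of a probe varied with a median coefficient of 5.42% to 8.39%. IL-10- HDM array 3 stood apart: its mean correlation with the other 11 arrays was 0.775, against 0.867 to 0.901 for the others, and 73.0% of tested genes were well above background on it, against 78.6% to 90.9%. The arrays lay on 2 slides, each scanned as 1 batch. Slide 1 held all 6 IL-10+ arrays and IL-10- control arrays 1 and 2, and slide 2 held IL-10- control array 3 and all 3 IL-10- HDM arrays. In HDM mice sort and slide therefore cannot be told apart, and the IL-10- control group alone spanned both slides.

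The cells carried the B cell markers that their label calls for. All 10 B cell markers (Ms4a1 and Pax5 among them) were tested, 9 were well above background on all 12 arrays, and 0 were called between IL-10+ and IL-10- cells by limma, with a median log2 fold change of -0.04. Their summed linear levels were 116 to 163 in IL-10+ HDM, 89.7 to 147 in IL-10+ control, 157 to 263 in IL-10- HDM and 83.1 to 158 in IL-10- control arrays. Of 9 tested plasma cell markers, Jchain, the joining chain of polymeric antibody that the array names Igj, rose in IL-10+ cells. The value was 6.84 on the log2 scale (adjusted p = 0.0045 by limma). Its probe was well above background on 8 of 12 arrays, with a lowest level of -6.24. The size and the p therefore draw partly on signals that did not clear the background. The median of the plasma cell list was 0.28. The summed levels of that list were 127 to 150 in IL-10+ HDM, 115 to 257 in IL-10+ control, 167 to 327 in IL-10- HDM and 112 to 153 in IL-10- control arrays. Some T cell (Cd3d, Cd8b1), NK cell (Klrb1c, Eomes), dendritic cell (Itgax, Clec9a), neutrophil (S100a8, S100a9) and erythroid or platelet markers (Hbb-b1, Pf4) were well above background on at most 2 arrays each. Other genes of these lists were well above background on all 12 arrays. These were 4 of the T cell list (Cd3e, Cd4, Cd8a, Lat), 2 of the NK cell list (Ncr1, Prf1) and 2 of the dendritic cell list (Flt3, Siglech). In the neutrophil list it was 1 (Csf3r), and in the erythroid and platelet list 1 (Itga2b). Of these, Csf3r (level 7.24 to 7.72) and Siglech (5.76 to 6.54) were bright on every array. The lists therefore do not settle whether such cells were present. All 8 monocyte and macrophage markers were tested, 4 were well above background on all 12 arrays and 0 were called by limma. The summed level of that list was 437 to 449 in IL-10+ HDM, 382 to 510 in IL-10+ control, 373 to 502 in IL-10- HDM and 381 to 424 in IL-10- control arrays, and its part in the results was not tested. Such a sum is led by its brightest probe, here Itgam (level 8.51 to 8.96) and in the plasma cell list Irf4 (6.18 to 8.24). Sums of different lists are therefore not comparable with each other.

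Blnk was the member with a called difference: it fell in IL-10+ cells, to a level 2.94-fold under that of IL-10- cells. Within each sort its level was higher in HDM than in control mice, by differences that did not pass the test. On the 3 arrays its level was 0.40, 0.61 and 0.46 in IL-10+ HDM cells, -0.34, -0.91 and 0.04 in IL-10+ control cells, 1.99, 1.95 and 2.15 in IL-10- HDM cells, and 0.86, 1.67 and 0.97 in IL-10- control cells. The 4 groups did not overlap: every IL-10+ array lay under every IL-10- array, and within each sort every HDM array lay above every control array. Group means were 0.49 ± 0.11 in IL-10+ HDM, -0.40 ± 0.48 in IL-10+ control, 2.03 ± 0.11 in IL-10- HDM and 1.17 ± 0.44 in IL-10- control cells (SD, n = 3 each). From high to low the order was therefore IL-10- HDM, then IL-10- control, then IL-10+ HDM and last IL-10+ control, and the probe was well above background on all 12 arrays.

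**Figure D1:**
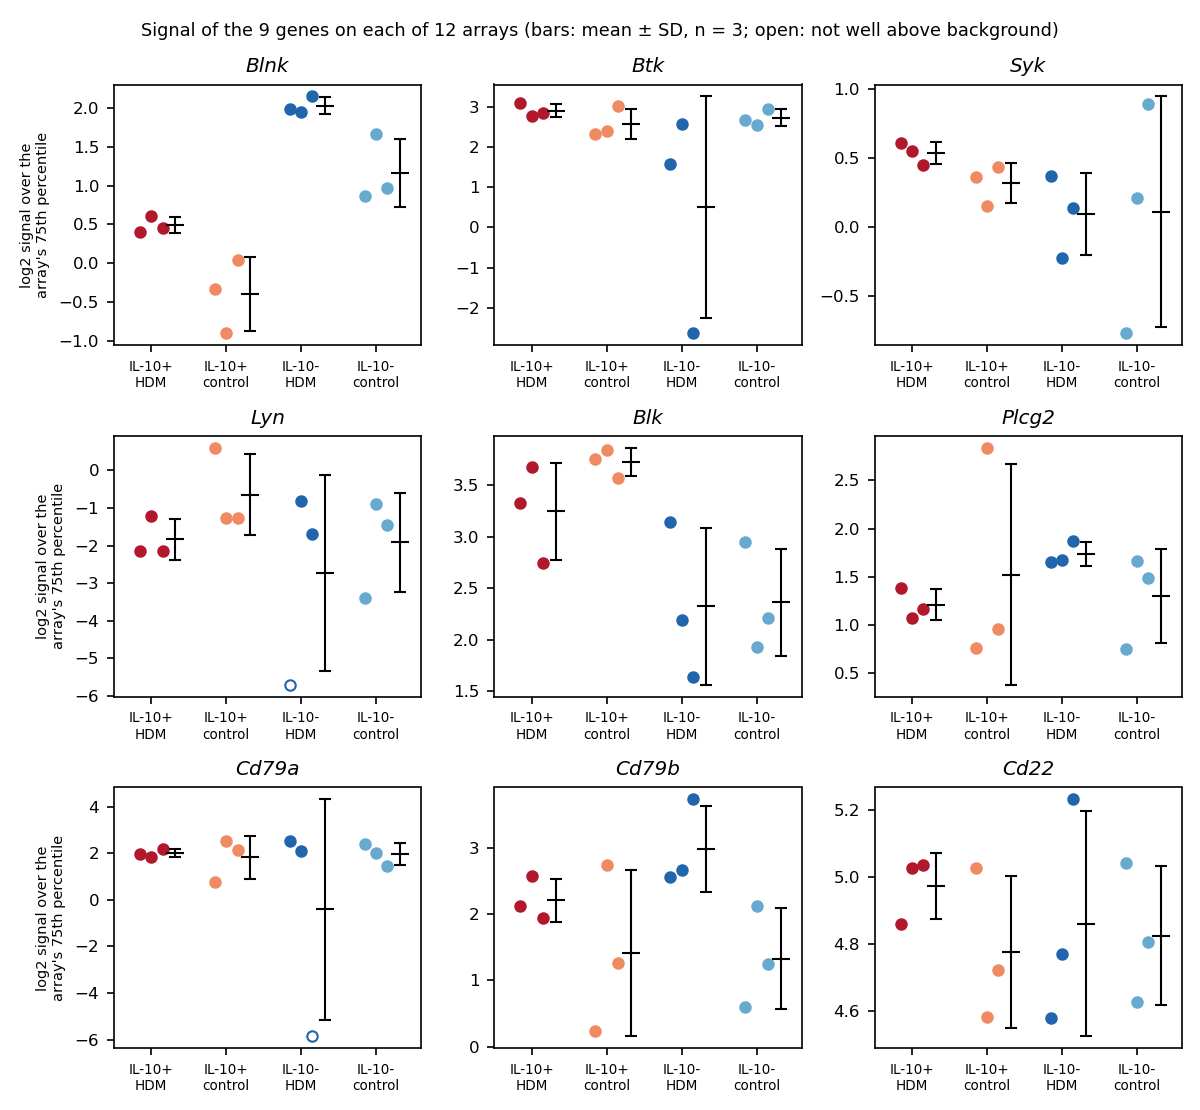
Level of each of the 9 genes on the 12 arrays (y axis, log2 signal over the array's 75th percentile, a separate scale for each gene) for the IL-10+ HDM and IL-10+ control groups, then the IL-10- HDM and IL-10- control groups. Points are arrays, open where a probe's signal did not clear the background, and bars are mean ± SD (n = 3). The 4 groups of Blnk do not overlap, while Btk and Cd79a each have 1 IL-10- HDM array far below the others.

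Over both kinds of mice, Blnk averaged 0.05 ± 0.58 in IL-10+ cells and 1.60 ± 0.55 in IL-10- cells (SD, n = 6 each). The difference was -1.56 on the log2 scale (SE 0.24, 95% interval -2.09 to -1.02), with an adjusted p of 0.034 by limma over all tested genes. This was 1 of 9 members called (1 lower), where 0.268% of all tested genes were called, and 1 of 9 without overlap between the 6 IL-10+ and 6 IL-10- arrays, against 0.937% of all genes. The 9 members were chosen with earlier results of these data known, so these shares are no test of the members as a group. The exact two-sided permutation test within HDM and control mice gave p = 0.005, and with 400 arrangements no smaller p was possible. The lack of overlap fixes this p, so it adds nothing to that lack of overlap. It is not adjusted for the number of genes and takes no account of slide. The call rested close to the threshold: leaving out 1 array gave -1.67 to -1.43 with adjusted p = 0.046 to 0.099, and only the omission of IL-10- HDM array 1 kept it, while omitting any of the other 11 arrays ended it (-1.53 and adjusted p = 0.064 without IL-10- HDM array 3). With slide as a block the value was -1.75 (SE 0.44, adjusted p = 0.40 by limma), and with arrays scaled to their median instead of their 75th percentile it was -1.89 (adjusted p = 0.088). With same-numbered arrays as 6 blocks it was -1.56 (adjusted p = 0.23 by limma).

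**Figure D2:**
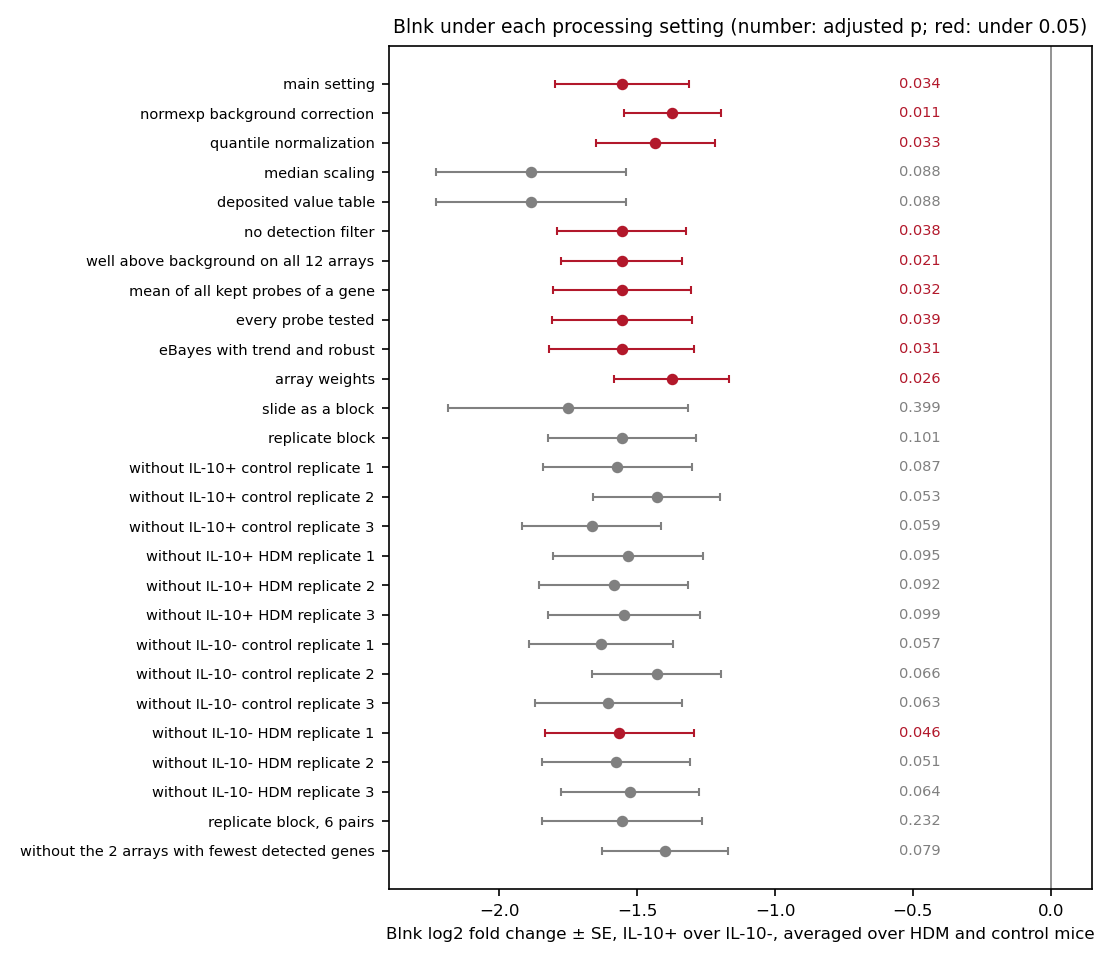
Log2 fold change of Blnk, IL-10+ over IL-10- averaged over HDM and control mice (x axis, point ± SE), under each way of processing the arrays or leaving arrays out (rows), with the adjusted p from limma at the right and red for values under 0.05. Every estimate is negative, between -1.89 and -1.37, while the adjusted p lies on both sides of 0.05.

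Within each kind of mouse the Blnk difference between sorts had about the same size. In HDM mice it was -1.54 (SE 0.34, 95% interval -2.30 to -0.78, adjusted p = 0.14 by limma), and in control mice -1.57 (SE 0.34, 95% interval -2.33 to -0.81, adjusted p = 0.40). The test of the difference between these contrasts gave 0.03 (SE 0.48, 95% interval -1.05 to 1.10, adjusted p = 0.99). With arrays scaled to their median that value was -0.90, where the median of all genes stood at -0.78; relative to the median of all genes it was -0.13 under both scalings. Control mice on slide 1 alone, where both sorts were present, gave -1.67 (adjusted p = 0.43).

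Between HDM and control mice, Blnk differed by 0.89 in IL-10+ cells (SE 0.34, 95% interval 0.13 to 1.65, unadjusted p = 0.026 and adjusted p = 1.00 by limma) and by 0.86 in IL-10- cells (SE 0.34, unadjusted p = 0.030 and adjusted p = 0.51 by limma). In IL-10+ cells all arrays lay on slide 1. Neither difference passed the test, and in IL-10- cells, where 2 of the 3 control arrays lay on slide 1, the value with slide as a block was 1.06 (SE 0.50, adjusted p = 0.74 by limma). With arrays scaled to their median it was 1.51 (adjusted p = 0.40), where the median of all genes was 0.60.

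The signalling chains of the receptor, Cd79a and Cd79b, did not pass the test in any of the 6 comparisons. Cd79b was 2.13, 2.57 and 1.94 in IL-10+ HDM cells, 0.23, 2.74 and 1.27 in IL-10+ control cells, 2.56, 2.67 and 3.74 in IL-10- HDM cells, and 0.60, 2.12 and 1.25 in IL-10- control cells. The IL-10- HDM arrays lay above the IL-10- control arrays without overlap, and the other neighbours in the order of the groups overlapped. HDM minus control in IL-10- cells was 1.66 (SE 0.64, 95% interval 0.23 to 3.09, unadjusted p = 0.027 and adjusted p = 0.51 by limma), or 1.29 without IL-10- HDM array 3, and in IL-10+ cells 0.80 (SE 0.64, adjusted p = 1.00), which became 0.21 on omitting IL-10+ control array 1, but 1.46 on omitting array 2 of that group. Between sorts, the mean of Cd79b was 1.81 ± 0.93 over IL-10+ arrays and 2.16 ± 1.11 over IL-10- arrays (SD, n = 6 each), a difference of -0.34 (SE 0.46, 95% interval -1.36 to 0.67, adjusted p = 0.85 by limma). Omitting IL-10+ control array 1 gave -0.05, whereas omitting array 2 of that group gave -0.67.

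Cd79a was read by 2 probes that disagreed. The upstream probe, which stood for the gene, gave 1.98, 1.86 and 2.19 in IL-10+ HDM cells, 0.78, 2.54 and 2.16 in IL-10+ control cells, 2.52, 2.12 and -5.87 in IL-10- HDM cells, and 2.40, 2.00 and 1.47 in IL-10- control cells. Apart from IL-10- HDM array 3, where this probe was not well above background, all 4 groups overlapped. The IL-10+ minus IL-10- difference was 1.14 (SE 1.26, 95% interval -1.65 to 3.94, adjusted p = 0.81 by limma) and -0.22 without IL-10- HDM array 3, so that 1 array set the sign.

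On the 3′ probe, Cd79a gave 0.25, -0.01 and -0.26 in IL-10+ HDM cells, -1.65, -3.53 and -1.99 in IL-10+ control cells, -2.27, -0.30 and 1.50 in IL-10- HDM cells, and -1.32, -1.01 and -0.81 in IL-10- control cells. Here IL-10+ control arrays lay below all IL-10+ HDM and all IL-10- control arrays. HDM minus control in IL-10+ cells was 2.38 on this probe (unadjusted p = 0.016, adjusted p = 1.00 by limma over all kept probes), where the upstream probe gave 0.18. Over both kinds of mice this probe gave -0.50 for IL-10+ minus IL-10- (adjusted p = 0.83).

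Among the Src-family kinases, Blk had the next smallest p after Blnk for the sort, in the other direction, and did not pass the test. Its level was 3.33, 3.67 and 2.74 in IL-10+ HDM cells, 3.76, 3.84 and 3.57 in IL-10+ control cells, 3.15, 2.19 and 1.64 in IL-10- HDM cells, and 2.94, 1.93 and 2.21 in IL-10- control cells. From high to low the order was IL-10+ control, then IL-10+ HDM, then IL-10- control and last IL-10- HDM. In control mice every IL-10+ array lay above every IL-10- array, while in HDM mice IL-10- array 1 reached into the IL-10+ range. The mean of Blk was 3.48 ± 0.41 over IL-10+ arrays and 2.34 ± 0.59 over IL-10- arrays (SD, n = 6 each), a difference of 1.14 (SE 0.32, 95% interval 0.43 to 1.85, unadjusted p = 0.0049 and adjusted p = 0.25 by limma). It was 1.36 in control mice (SE 0.45, unadjusted p = 0.013, adjusted p = 0.95) and 0.92 in HDM mice (SE 0.45, unadjusted p = 0.068, adjusted p = 0.40), and the test of the difference between them gave -0.44 (SE 0.64, adjusted p = 0.87). Without IL-10- HDM array 3 the value in HDM mice was 0.58, and with slide as a block the averaged value was 0.99. With arrays scaled to their median, the value in HDM mice was 0.12 and the difference between the contrasts -1.37 (adjusted p = 0.52), where the medians of all genes were -0.64 and -0.78.

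Lyn, the kinase that both starts receptor signalling and recruits its inhibitors, was too variable between arrays for a difference of this size to be told. Its level was -2.15, -1.21 and -2.14 in IL-10+ HDM cells, 0.60, -1.26 and -1.28 in IL-10+ control cells, -5.70, -0.82 and -1.69 in IL-10- HDM cells, and -3.39, -0.90 and -1.44 in IL-10- control cells. All 4 groups overlapped, and the probe was not well above background on IL-10- HDM array 1. IL-10+ minus IL-10- was 1.08 (SE 0.83, 95% interval -0.76 to 2.93, adjusted p = 0.73 by limma), and 0.34 without IL-10- HDM array 1. In HDM mice alone the value was 0.91 with that array and -0.58 without it.

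Syk, the kinase that phosphorylates BLNK, did not pass the test on its 3′ probe, which stood for the gene. The level was 0.61, 0.55 and 0.45 in IL-10+ HDM cells, 0.37, 0.16 and 0.44 in IL-10+ control cells, 0.37, -0.22 and 0.14 in IL-10- HDM cells, and -0.77, 0.21 and 0.89 in IL-10- control cells. IL-10+ HDM arrays lay just above all IL-10+ control and all IL-10- HDM arrays, and every other pair of groups overlapped. IL-10+ minus IL-10- was 0.33 (SE 0.29, 95% interval -0.32 to 0.97, adjusted p = 0.77 by limma), and in HDM mice 0.44 (SE 0.41, adjusted p = 0.63), a sign that turned to -0.35 with arrays scaled to their median. The averaged value was 1.11 with slide as a block (adjusted p = 0.67), and omitting IL-10- control array 1 gave 0.11, whereas omitting array 3 of that group gave 0.52.

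The Syk probe on a cDNA clone gave -1.05, -1.04 and -2.23 in IL-10+ HDM cells, -2.28, -1.20 and -2.29 in IL-10+ control cells, -3.21, -2.65 and -5.90 in IL-10- HDM cells, and -3.73, -5.34 and -1.47 in IL-10- control cells. It was well above background on all 6 IL-10+ arrays, 2 of 3 IL-10- HDM arrays and 1 of 3 IL-10- control arrays. On this probe IL-10+ minus IL-10- was 2.04 (SE 0.74, unadjusted p = 0.019, adjusted p = 0.43 by limma over 37649 kept probes), a value partly built on IL-10- signals that did not clear the background. Of the 12 member probes, only that of Blnk was called when every probe was tested (adjusted p = 0.039).

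Btk, the kinase that BLNK brings to PLCG2, was close in 3 of the 4 groups on its upstream probe. The level was 3.09, 2.78 and 2.84 in IL-10+ HDM cells, 2.32, 2.41 and 3.01 in IL-10+ control cells, 1.57, 2.57 and -2.64 in IL-10- HDM cells, and 2.67, 2.55 and 2.96 in IL-10- control cells. IL-10+ HDM arrays lay above IL-10- HDM arrays without overlap, and the other groups overlapped their neighbours. In HDM mice IL-10+ minus IL-10- was 2.41 (SE 1.05, unadjusted p = 0.044 and adjusted p = 0.36 by limma), and 0.84 without IL-10- HDM array 3. In control mice it was -0.15 (SE 1.05, adjusted p = 1.00), and over both kinds of mice 1.13 (SE 0.74, 95% interval -0.52 to 2.78, adjusted p = 0.68) or 0.34 without that array. HDM minus control in IL-10- cells was -2.23 (SE 1.05, adjusted p = 0.55 by limma) and -0.66 without IL-10- HDM array 3.

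The 3′ Btk probe ranked the same cells another way. It gave 1.51, 1.06 and 1.52 in IL-10+ HDM cells, 1.22, 2.13 and 1.50 in IL-10+ control cells, -0.18, 2.16 and 3.83 in IL-10- HDM cells, and 1.39, 1.70 and 1.07 in IL-10- control cells. The array that was lowest on the upstream probe, IL-10- HDM array 3, was the highest on this one. In HDM mice it gave -0.57 for IL-10+ minus IL-10- (adjusted p = 0.76 by limma over all kept probes) and over both kinds of mice -0.17 (adjusted p = 0.95).

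**Figure D3:**
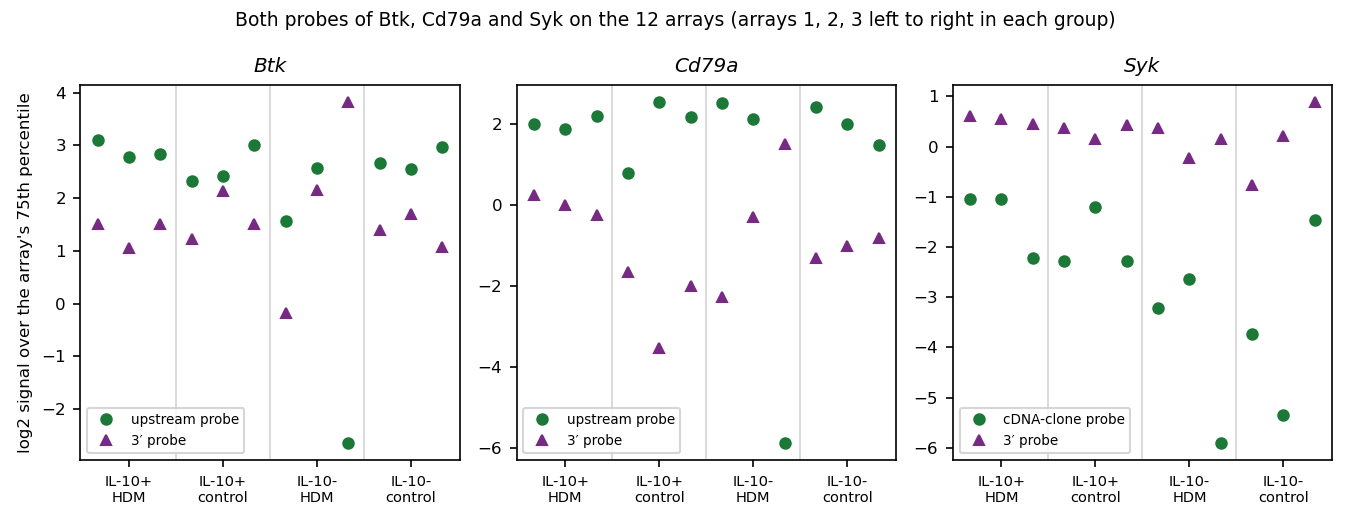
Level on both probes of Btk, Cd79a and Syk (y axis, log2 signal over the array's 75th percentile) for each array, with arrays 1, 2 and 3 from left to right in the IL-10+ HDM and IL-10+ control groups, then the IL-10- HDM and IL-10- control groups. Circles are the upstream or cDNA clone probe and triangles the 3′ probe, whose heights are not comparable with each other. On IL-10- HDM array 3 the upstream probes of Btk and Cd79a are lowest (-2.64 and -5.87) while their 3′ probes are highest (3.83 and 1.50).

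A shift in the same direction was seen on that array for most transcripts with 2 probes. For 2148 RefSeq transcripts with 2 kept probes at least 500 bases apart, the downstream level minus the upstream level was taken relative to the transcript's own median over the 12 arrays. The median of this shift was 0.69 on IL-10- HDM array 3 and -0.11 to 0.12 on the other 11 arrays. The downstream probe was relatively higher for 62.0% of the transcripts on that array, against 41.0% to 56.9% on the others. The median shift was 0.47 for probes 500 to under 1000 bases apart (601 transcripts), 0.72 for 1000 to under 2000 (740 transcripts) and 0.92 for 2000 or more (807 transcripts). The downstream minus upstream level of Btk itself was 6.47 on that array, against -1.89 to -0.29 on the others. For Cd79a it was 7.37, against -6.07 to -1.73. These gaps were far larger than the median shifts above. The Cd79a pair was not among the RefSeq transcripts used, since its 3′ probe was designed on a cDNA. The part of the general shift in the Btk and Cd79a values was not tested.

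**Figure D4:**
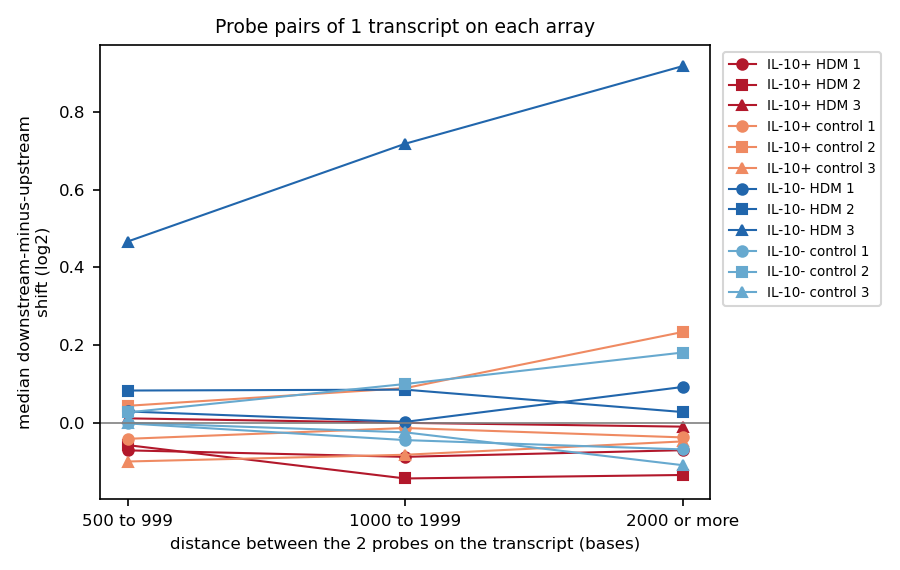
Median downstream-minus-upstream shift over transcripts with 2 probes (y axis, log2) against the distance between the probes (x axis, bases, 3 classes), 1 line per array. IL-10- HDM array 3 lies at 0.47, 0.72 and 0.92, above all 11 other arrays in each class.

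Plcg2, the lipase that makes the second messengers of the receptor, did not pass the test. Its level was 1.38, 1.07 and 1.16 in IL-10+ HDM cells, 0.76, 2.84 and 0.96 in IL-10+ control cells, 1.65, 1.68 and 1.87 in IL-10- HDM cells, and 0.74, 1.66 and 1.48 in IL-10- control cells. IL-10+ HDM arrays lay below IL-10- HDM arrays without overlap, and the other groups overlapped. In HDM mice IL-10+ minus IL-10- was -0.53 (SE 0.52, 95% interval -1.68 to 0.63, adjusted p = 0.66 by limma). Over both kinds of mice it was -0.15 (SE 0.37, 95% interval -0.97 to 0.66, adjusted p = 0.92), and 0.03 with slide as a block. Leaving out IL-10+ control array 2 gave -0.48 and leaving out IL-10+ control array 1 gave 0.04, so single arrays set its sign.

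Cd22, the inhibitory receptor, varied least between arrays. Its level was 4.86, 5.03 and 5.03 in IL-10+ HDM cells, 5.02, 4.58 and 4.72 in IL-10+ control cells, 4.58, 4.77 and 5.23 in IL-10- HDM cells, and 5.04, 4.63 and 4.80 in IL-10- control cells. All groups overlapped. IL-10+ minus IL-10- was 0.03 (SE 0.21, adjusted p = 0.97 by limma), and the 95% interval of -0.43 to 0.50 leaves room for a change of either sign within that range. With arrays scaled to their median the value was -0.30, where the median of all genes was -0.29, in place of 0.04 under the 75th percentile.

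**Figure D5:**
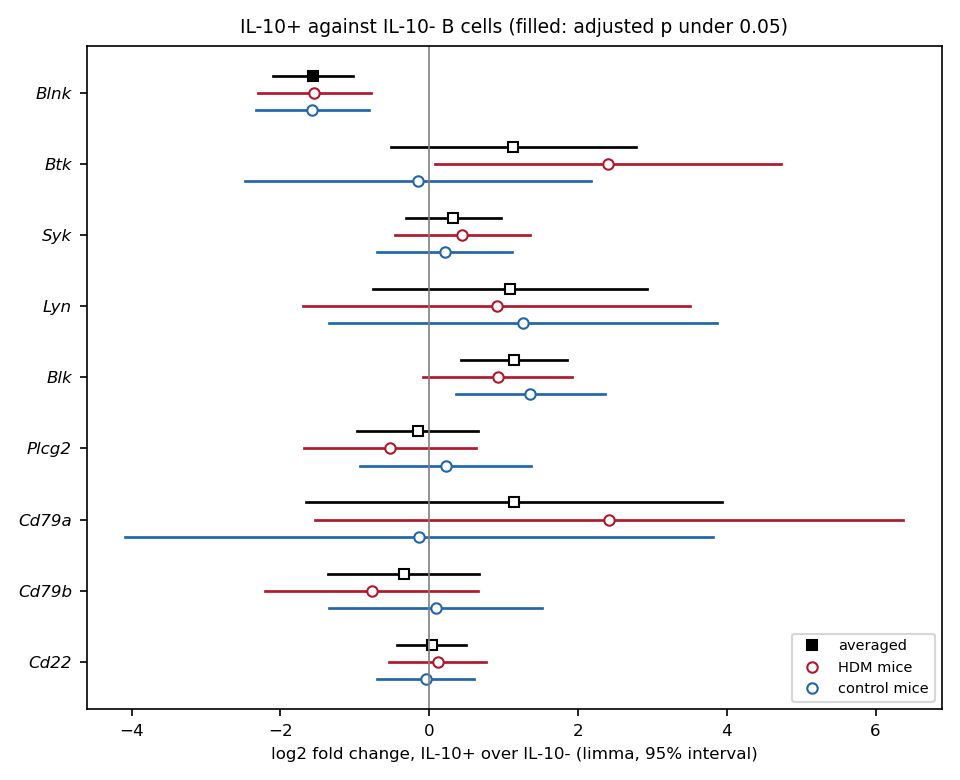
Log2 fold change of each of the 9 genes, IL-10+ over IL-10- (x axis, limma, bars are 95% intervals), in HDM mice (red), control mice (blue) and averaged over both (black squares), filled where the adjusted p was under 0.05. Only the averaged value of Blnk is filled, and the widest intervals are those of Cd79a, Btk and Lyn.

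Set side by side, the 9 genes did not move together. Over both kinds of mice, 6 were higher and 3 lower in IL-10+ cells by value, with a median of 0.33 beside 0.04 for all tested genes. With arrays scaled to their median, 4 of 9 were higher, with a median of -0.00 beside -0.29 for all genes. At an unadjusted p under 0.05 stood 2 of 9 (Blnk lower, Blk higher), where 9.17% of all genes did. In control mice 0 of 9 were called by limma (0.016% of all genes), 2 had an unadjusted p under 0.05 (4.06% of all genes) and the same 2, Blnk and Blk, had no overlap (9.45% of all genes). In HDM mice 0 of 9 were called by limma (0.168% of all genes), 2 had an unadjusted p under 0.05, Blnk and Btk (13.3% of all genes), and 4 had no overlap, Blnk, Btk, Syk and Plcg2 (22.6% of all genes). By value 6 of 9 were higher in IL-10+ cells of HDM mice, with a median of 0.44 beside 0.16 for all genes, and 4 of 9 with arrays scaled to their median, with a median of -0.35 beside -0.64.

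Between HDM and control mice, 0 of 9 members were called by limma in IL-10+ cells (0.00401% of all genes), 1 had an unadjusted p under 0.05 (2.28% of all genes) and 2 had no overlap, Blnk and Syk (9.61% of all genes). In IL-10- cells 0 of 9 were called (0.0481% of all genes), while Blnk and Cd79b had an unadjusted p under 0.05 (9.13% of all genes) and no overlap (11.9% of all genes). For the difference of the sort contrast between HDM and control mice, 0 of 9 were called by limma (0.012% of all genes) and 0 had an unadjusted p under 0.05 (6.46% of all genes). These comparisons share arrays, so their counts are not independent of each other.

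The wider pathway was read from 5 lists, of which 71 of 82 genes were tested. Ighd and Ceacam1 matched no probe by name, and 9 genes, among them Sos1, Gab1, Rasgrp3, Inpp5d, Dok2, Lcp2 and Clnk, did not pass the detection filter. Over both kinds of mice 1 of the 71 was called by limma, Ptpn22, with 6 higher and 1 lower at an unadjusted p under 0.05. Among all tested genes 1396 were higher and 892 lower at that p. By value 47 of 71 were higher, with a median of 0.24 beside 0.04 for all genes, while with arrays scaled to their median 27 of 71 were higher, with a median of -0.09 beside -0.29. In HDM mice 9 were higher and 3 lower at an unadjusted p under 0.05, with 1926 higher and 1393 lower among all genes, and in control mice 4 were higher and 0 lower, with 561 higher and 453 lower among all genes. As shares of the tested genes these were 9.86% of the pathway genes over both kinds of mice, 16.9% in HDM mice and 5.63% in control mice, beside 9.17%, 13.3% and 4.06% of all genes. The counts by list below are of so few genes that they are read as descriptions beside those shares.

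Ptpn22, a tyrosine phosphatase that restrains antigen receptor signalling and is best studied in T cells, was the pathway gene that rose in IL-10+ cells. Its level was -2.81 to -1.43 in IL-10+ HDM arrays, -2.72 to -1.46 in IL-10+ control arrays, -6.59 to -6.11 in IL-10- HDM arrays and -6.65 to -3.92 in IL-10- control arrays. The probe was well above background on all 6 IL-10+ arrays and on 0 of 6 IL-10- arrays, so the fold depends on how signals near the background are treated. The gene passed the detection filter only through its IL-10+ arrays, and the p-values draw on IL-10- signals that did not clear the background. The IL-10+ mean was set against the dimmest signal that counted as well above background on each IL-10- array, or the array's own signal if higher. Against this raised reference it was 4.55-fold higher over both kinds of mice, 5.60-fold in HDM mice and 3.69-fold in control mice. These are not the fitted values, which were 3.91, 4.46 and 3.37 on the log2 scale. The fits gave adjusted p = 0.013, 0.043 and 0.31 by limma, in that order. With the normexp background correction the log2 fold change was 0.99 over both kinds of mice and 1.09 in HDM mice. The size of the fold is therefore not settled. The averaged call held whichever single array was left out (adjusted p = 0.0035 to 0.045). Those fits use the same IL-10- signals that did not clear the background, so this steadiness adds no support. In HDM mice the call ended with most single omissions (adjusted p = 0.012 to 0.17). There it held only when the omitted array was, among IL-10- cells, control 1 (0.012), control 3 (0.037) or HDM 1 (0.049). The averaged call ended with slide as a block (adjusted p = 0.45) and with the normexp background correction (adjusted p = 0.067). It ended too with same-numbered arrays as 6 blocks (adjusted p = 0.16). Without the pair of arrays with the fewest detected genes it also ended (adjusted p = 0.061).

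Among the coreceptor and membrane adaptor genes, 2 of 11 were higher at an unadjusted p under 0.05 over both kinds of mice and 0 were called by limma. Cd38, an ectoenzyme of the B cell surface, had an adjusted p of 0.39. In HDM mice it was well above background on 2 of 3 IL-10+ and 0 of 3 IL-10- arrays. Its level there was -3.77 to -0.43 in IL-10+ arrays and -6.32 to -5.56 in IL-10- arrays (adjusted p = 0.32 by limma). Signals that did not clear the background enter both sides, so no fold is given. Ptprc, which encodes the phosphatase CD45 that primes Src-family kinases, differed by 0.81 (SE 0.33, adjusted p = 0.50). Dapp1, a phosphoinositide-binding adaptor, differed by 2.73 in HDM mice (SE 1.05, adjusted p = 0.33 by limma) and by 0.33 in control mice (SE 1.05). The test of the difference between these contrasts gave 2.40 (SE 1.48, adjusted p = 0.76 by limma).

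In the PI3 kinase and Ras-MAPK branch, 1 of 16 genes was higher and 1 lower at an unadjusted p under 0.05 over both kinds of mice. Vav3, a guanine nucleotide exchange factor, differed by 1.45 (SE 0.50, adjusted p = 0.40 by limma), but was well above background on only 2 IL-10+ HDM arrays and 1 IL-10- HDM array. Akt1, the kinase downstream of PI3 kinase, differed by -0.87 (SE 0.37, adjusted p = 0.53). In HDM mice the adaptor Shc1 differed by -2.27 (SE 0.81, adjusted p = 0.32) and the adaptor Nck2 by 0.93 (SE 0.41, adjusted p = 0.36). Both had the other sign in control mice, at 0.34 for Shc1 (SE 0.81) and -0.75 for Nck2 (SE 0.41). In control mice Rac2, a small GTPase of blood cells, differed by 1.11 (SE 0.38, adjusted p = 0.98 by limma), and in HDM mice by -0.11 (SE 0.38).

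In the calcium and protein kinase C branch, 1 of 16 genes stood at an unadjusted p under 0.05. Prkcb, the protein kinase C isoform that links the receptor to NF-kB, averaged 1.58 ± 0.23 in IL-10+ HDM, 1.65 ± 0.28 in IL-10+ control, 1.01 ± 0.40 in IL-10- HDM and 0.14 ± 0.54 in IL-10- control cells (SD, n = 3 each). The averaged difference was 1.04 (SE 0.26, unadjusted p = 0.0024, adjusted p = 0.19 by limma). Of 15 inhibitory receptors and phosphatases, 2 were higher at an unadjusted p under 0.05, Ptpn22 and Siglecg. Siglecg, an inhibitory sialic acid receptor related to Cd22, differed by 2.15 (SE 0.94, adjusted p = 0.53 by limma) and had 1 IL-10- HDM array down at -5.81. Ptpn11, the phosphatase SHP-2, differed by -1.63 in HDM mice (SE 0.53, adjusted p = 0.28) and by 0.06 in control mice (SE 0.53). Of 13 kinase and adaptor paralogs of the members, such as Fyn and Lck, 0 stood at an unadjusted p under 0.05 in the sort comparisons by limma.

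Over the 12 arrays the level of Blnk was compared with that of 7800 genes with a symbol that were well above background on every array. The arrays share their slides, their sort and their depth of signal, and the correlations are a description with no test. Closest to Blnk were Actrt1 (r = 0.97), Rhebl1 (r = 0.91), Tmem191c (r = 0.91), Uba6 (r = 0.91) and Lrrc8c (r = 0.89). Most opposite were Sp140 (r = -0.92), Lnpep (r = -0.92), Amigo3 (r = -0.91), Thada (r = -0.90) and Il1rn (r = -0.89). Among the members Blk stood nearest the opposite end (r = -0.80, 44 from the bottom), followed by Btk (r = -0.49) and Syk (r = -0.20), while Plcg2 (r = 0.03), Cd22 (r = 0.07) and Cd79b (r = 0.45) lay between. The Btk value is of its upstream probe, which was lowest on IL-10- HDM array 3 (-2.64), where Blnk was highest (2.15). The 3′ Btk probe was highest on that array (3.83). Lyn and Cd79a were not well above background on every array and were not ranked.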

How the data were processed

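RNA of sorted B cells was measured on 12 one-colour microarrays. Per the labels, mRNA was bead-isolated, its cDNA amplified by PCR (SuperAmp), and the product labelled with Cy3. The arrays had an Agilent mouse design on mm9 and were read with Feature Extraction 10.7.3.1, per the file headers. Several kinds of intensity were taken from the deposited scanner files: the processed signal (background-subtracted and detrended by the authors' software, not normalised between arrays), the mean spot signal and the local background. Flags and annotation in them are other values, per the file headers. By recomputation, the authors' value table gives the ratio of each processed signal to its array's median.

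Each array had 59305 gene spots for 55681 probes. Probes well above background on at least 3 of 12 arrays (37733) were kept, less 84 with every spot flagged as an outlier on some array, which left 37649. Signals were divided by their array's 75th percentile, put on the log2 scale and tested with limma 3.58.1 (lmFit, eBayes) in R 4.3.3 (package data.table, version 1.17.8), with 1 mean per group, 8 residual degrees of freedom and 2.12 prior degrees of freedom. For each of 24964 genes the probe with the highest mean stood for the gene. A gene was called at an adjusted p under 0.05 (Benjamini-Hochberg, all tested genes together). The scripts were tested on simulated data. Arrays give no counts, so their number limits the precision.

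The 9 members and all gene lists were chosen with earlier results of these data known. By the rule for named genes, every member was named in every comparison. Of the pathway lists, called genes were named, and for each list and sort comparison up to 2 higher and 2 lower genes at an unadjusted p under 0.05. Of genes like Blnk, the 5 with the highest and the 5 with the lowest Pearson correlation were named, and of the marker lists, called or defining genes. A result that this rule would name is not reported here. Alternatives were normexp background correction (offset 50), quantile and median scaling, the deposited table, other detection filters, probe rules and variance models, array weights, slide and replicate number as blocks, slide 1 alone, and each array left out in turn.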

Additional observations from a re-analysis of the deposited data

How the results depend on the processing

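All values below are of limma fits, and no result of the members changed sign among those called. For Blnk, IL-10+ minus IL-10- over both kinds of mice, the call (adjusted p = 0.034) held with normexp (-1.37, adjusted p = 0.011), quantile normalization (-1.43), no detection filter, detection on all 12 arrays, the mean of a gene's probes, every probe tested, trend and robust variances, and array weights (-1.38, adjusted p = 0.026). It ended at -1.89 with median scaling and with the deposited value table (adjusted p = 0.088 each), at -1.75 with slide as a block (adjusted p = 0.40), and without single arrays (-1.67 to -1.43). Samples with the same replicate number in the labels were treated as sharing only a number, since no label ties them to 1 mouse. Their deviations from the group means correlated at 0.02 to 0.07 in HDM mice and 0.03 to 0.15 in control mice. Such small positive values cannot show whether the samples were pairs. With the replicate number as a block the Blnk value was -1.56 (adjusted p = 0.10). With 6 blocks of same-numbered pairs, added after seeing the data, it was -1.56 (adjusted p = 0.23). Without the 2 arrays with the fewest detected genes, also added after seeing the data, it was -1.40 (adjusted p = 0.079). The number of members called was 0 in place of 1 in each of these settings, with a range of 0 to 1 over single omissions. The number of member probes called was 0 in place of 1 with median scaling, the deposited table, slide as a block and the replicate block, and 0 to 1 over single omissions. Median scaling and the deposited table also gave Blnk -2.34 in HDM mice, 1.51 for HDM minus control in IL-10- cells and -0.90 for the difference between the sort contrasts. Under both, the median of all genes over both kinds of mice was -0.29 in place of 0.04. The number of pathway genes called over both kinds of mice was 0 in place of 1 with normexp, with slide as a block, with the 6 blocks and without the 2 arrays. With detection on all 12 arrays Ptpn22 was not among the genes tested. In HDM mice it was 0 in place of 1 with normexp, median scaling, the deposited table, no detection filter, trend and robust variances, array weights, slide as a block, the replicate block, the 6 blocks and without the 2 arrays, and 0 to 1 over single omissions. For HDM minus control in IL-10- cells it was 1 in place of 0 without IL-10- HDM array 2 (Dapp1). With that omission Dapp1 was also the called gene between sorts in HDM mice, in place of Ptpn22 (adjusted p = 0.065). Of all tested genes 67 were called over both kinds of mice, against 26 with median scaling, 30 with detection on all 12 arrays, 128 with array weights, 130 of 37649 probes with every probe tested, 36 with the replicate block, 0 with 6 pairs (2610 at an unadjusted p under 0.05), 0 with slide as a block (1759 at an unadjusted p under 0.05), 39 without the 2 arrays, and 31 to 139 over single omissions. The causes of these changes were not tested. Arrays of 3 per group and a wide spread for Lyn, Cd79a and Btk limit what size of difference could be told.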
